A study of Mus musculus with 13 samples.

Results

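Tanycytes are elongated glial cells that line the floor and lower walls of the third ventricle, beside the arcuate nucleus of the hypothalamus. The 8 genes described here were chosen by name as tanycyte genes and were all found in the deposited table, among 55421 gene identifiers counted in 13 libraries. They are Rax, Crym, Lhx2, Dio2, Gpr50, Frzb, Fgf10 and Nes. All 8 passed the filter on low counts.

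The study deleted Klf4, a zinc-finger transcription factor gene, in cells that express Agrp, and sequenced bulk RNA of the arcuate nucleus of mice killed at 20 weeks of age. KO mice carried Agrp-Cre and floxed Klf4. The 4 groups were KO on regular chow (n = 3), control littermates on regular chow (n = 3), KO after 10 weeks of high-fat diet (HFD, n = 3) and controls after 10 weeks of HFD (n = 4). Whether the controls carried floxed Klf4 or Cre is not given. Agrp, which drives the Cre, is the gene of the AgRP neurons, so the deletion was aimed at neurons and not at tanycytes. The titles give numbers with a suffix, some numbers recur, and nothing says that each library is a separate mouse, so p-values measure the spread between these samples. Bulk tissue was counted, so fewer cells of a type and less RNA per cell cannot be told apart.

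In this part of the brain tanycytes divide the ventricle from the tissue, pass hormones and nutrients between blood, cerebrospinal fluid and neurons, and keep properties of neural progenitors. Rax and Lhx2 are homeobox transcription factor genes that set the identity of tanycytes. Dio2 encodes the deiodinase that converts the thyroid hormone T4 into the active T3, and Crym encodes mu-crystallin, which binds T3 inside cells. Gpr50 encodes an orphan receptor related to the melatonin receptors, Frzb a secreted inhibitor of WNT signalling, Fgf10 a growth factor ligand of tanycytes in the ventricle floor, and Nes the intermediate filament nestin of progenitor cells. Some are also transcribed elsewhere: Dio2 in astrocytes, Nes in vessels, and Crym and Fgf10 in some neurons.

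Levels are given as CPM, the counts of a gene scaled to the total of its library. Totals ranged from 34.7 to 68.2 M counts per library, and 1 count equals 0.0147 to 0.0288 CPM. The lowest value of any of the 8 genes was 1.07 CPM, where 3 counts are at most 0.0864 CPM. Klf4 itself was at 1.58 to 5.95 CPM and did not separate the genotypes, with a log2 fold change of KO against control of -0.18 ± 0.41 (SE) on chow (edgeR adjusted p = 0.878) and 0.24 ± 0.37 on HFD (edgeR adjusted p = 1). The count covers the whole gene in whole tissue. Libraries are named by group and number, where numbers follow the order of the records. The library labelled Control_HFD replicate 3 had Hsd11b2, a steroid dehydrogenase gene, at 63.6 CPM, within the 60.7 to 68.5 CPM of the 6 KO libraries and above the 0.348 to 1.55 CPM of the other 6 controls. The library labelled Control_Chow replicate 3 carries the sex letter F, while its female-specific Xist was at 0.674 CPM and its 4 Y-linked genes summed to 180 CPM, as in M libraries. Several results that rest on these 2 libraries are also given without them, and the others only with them.

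The promoters of 4 genes are shown because 3 of them, Dio2, Lhx2 and Fgf10, passed the test against Agrp described below and the other, Gpr50, had the highest level per length. Frzb also passed and is not shown, and its window overlaps an annotated transcript of Frzb. Fgf10 is shown although its window also lies inside the annotated Fgf10 gene, which starts at 118669791. The Fgf10 window thus precedes the RefSeq start only. Each sequence holds the 250 bases before the RefSeq transcription start (GRCm38.p6), 5′ to 3′ on the strand of the gene. The regions are chr12:90739039-90739288 on the minus strand for Dio2, chr2:38339031-38339280 on the plus strand for Lhx2, chr13:118714449-118714698 on the plus strand for Fgf10 and chrX:71663417-71663666 on the plus strand for Gpr50. Capitals mark matches, on either strand, to 3 of the motifs searched, TGACGTCA (the cAMP response element), TATAAA (the TATA box) and GGGCGG (the GC box, written CCGCCC on the other strand).
Dio2: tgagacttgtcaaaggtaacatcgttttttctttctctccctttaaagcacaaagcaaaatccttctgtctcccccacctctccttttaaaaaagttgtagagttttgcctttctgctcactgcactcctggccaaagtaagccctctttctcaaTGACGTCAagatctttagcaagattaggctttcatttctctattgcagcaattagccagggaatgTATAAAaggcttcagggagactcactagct
Lhx2: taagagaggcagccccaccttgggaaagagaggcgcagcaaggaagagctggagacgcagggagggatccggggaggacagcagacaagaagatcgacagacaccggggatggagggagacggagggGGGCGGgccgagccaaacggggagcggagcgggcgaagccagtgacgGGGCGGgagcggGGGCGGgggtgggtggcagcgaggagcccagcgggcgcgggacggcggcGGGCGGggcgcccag
Fgf10: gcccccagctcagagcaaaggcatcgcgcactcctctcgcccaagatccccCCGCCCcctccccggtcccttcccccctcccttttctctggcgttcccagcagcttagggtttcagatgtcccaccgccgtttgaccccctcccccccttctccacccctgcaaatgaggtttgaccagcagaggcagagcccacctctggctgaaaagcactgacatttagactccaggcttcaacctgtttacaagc
Gpr50: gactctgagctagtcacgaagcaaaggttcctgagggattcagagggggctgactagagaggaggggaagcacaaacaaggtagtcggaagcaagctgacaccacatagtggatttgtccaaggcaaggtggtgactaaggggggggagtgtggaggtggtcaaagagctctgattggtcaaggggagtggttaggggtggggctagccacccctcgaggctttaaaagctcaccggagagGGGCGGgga
The Dio2 promoter held the full cAMP response element, starting 95 bases before the start site, and a TATA box 30 bases before it. TGACGTCA occurred in 1.55% of 32851 mouse promoter windows of the same length and TATAAA in 12.4%. The Lhx2 window held 4 GC boxes, and the windows of Fgf10 and Gpr50 held 1 each, a motif present in 32.7% of all windows. The homeodomain core TAATTA, present in 4.84% of windows, was in none of the 4. The motifs were chosen after the sequences were read, they do not overlap each other in these windows, and a match is a run of letters only.

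Per length of transcript, Gpr50 was the highest of the 8 genes, at 15.3 ± 11.5 RPKM (counts scaled to gene length and library total, mean ± SD, n = 13 libraries). Frzb followed at 8.04 ± 7.22, Crym at 4.79 ± 2.53, Fgf10 at 3.31 ± 2.04, Rax at 3.28 ± 2.62 and Lhx2 at 2.90 ± 1.82 RPKM. Nes, at 0.850 ± 0.378 RPKM, and Dio2, at 0.630 ± 0.496 RPKM, were the lowest. Neighbours in this order differed by less than the larger of their SDs, except Lhx2 and Nes. Agrp ran from 5.79 to 68.6 RPKM on the same scale.

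The libraries differed more in these genes than in most genes. Rax ranged from 1.07 to 54.3 CPM, 50.5-fold between the lowest and the highest library, and Gpr50 ranged 19.8-fold. The span was 10.6-fold for Frzb, 8.95-fold for Dio2, 7.26-fold for Lhx2, 5.76-fold for Fgf10, 4.48-fold for Crym and 4.10-fold for Nes. Over 23111 tested genes with reads in every library the median span was 1.76-fold. Against these genes the spans above lay between percentile 83.0 (Nes) and percentile 99.5 (Rax). These spans describe libraries that include different groups.

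Among the transcription factor genes, Rax (ENSMUSG00000024518.4, chromosome 18, 65928277 to 65939787, minus strand) was at 24.0, 29.4 and 19.4 CPM in KO on chow and at 4.66, 19.5 and 6.76 CPM in controls on chow. In KO on HFD it was at 14.5, 1.07 and 54.3 CPM, and HFD controls had 3.33, 40.9, 16.2 and 14.9 CPM. The chow groups met at their edges, and on HFD each group held a library far above the others. Raxos1, on the opposite strand, overlaps Rax and reached 25.8 CPM, and since the strand setting of the counting is not given, reads of the overlap cannot be assigned.

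Lhx2 (ENSMUSG00000000247.11, chromosome 2, 38339281 to 38369733, plus strand) was at 10.6, 15.9 and 16.7 CPM in KO on chow, each above the controls at 4.58, 8.96 and 5.63 CPM. On HFD the KO libraries had 11.1, 7.27 and 33.2 CPM and the controls 7.21, 23.0, 8.96 and 12.3 CPM, with overlap. KO_HFD replicate 3 and Control_HFD replicate 2 were the highest pair for both factors.

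Of the thyroid hormone genes, Dio2 (ENSMUSG00000007682.6, chromosome 12, 90724552 to 90738438, minus strand) was at 1.69, 4.06 and 3.90 CPM in KO on chow and 1.30, 2.34 and 1.56 CPM in controls on chow. The KO libraries on HFD had 4.68, 1.29 and 11.5 CPM, and HFD controls 2.02, 5.97, 1.76 and 5.54 CPM. The lowest KO library on chow, the M library, was inside the control range. Crym (ENSMUSG00000030905.5, chromosome 7, 120186380 to 120202111, minus strand) went the other way in that library. It was at 27.5, 19.9 and 14.3 CPM in KO on chow against 10.5, 14.4 and 8.54 CPM in controls on chow, and the M library was the highest of the 3 KO libraries. Crym on HFD had 8.65, 7.77 and 27.4 CPM in KO, with 13.9, 34.8, 12.3 and 11.1 CPM among controls, so 2 of 3 KO libraries lay below every control.

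Gpr50 (ENSMUSG00000056380.13, chromosome X, 71663667 to 71669257, plus strand) was at 68.3, 75.6 and 63.5 CPM in KO on chow and 8.93, 53.6 and 31.5 CPM in controls on chow, without overlap. The HFD libraries of KO mice had 20.1, 5.66 and 112 CPM, and HFD controls 16.3, 103, 32.3 and 20.0 CPM. The KO libraries on chow were close to each other, and every other group held both high and low libraries. Frzb (ENSMUSG00000027004.3, chromosome 2, 80411970 to 80447625, minus strand) was at 29.3, 54.2 and 37.9 CPM in KO on chow, each above the controls at 6.74, 10.0 and 11.1 CPM. Frzb on HFD had 13.1, 6.59 and 69.9 CPM in KO, with 13.9, 66.2, 7.90 and 11.7 CPM among controls, with 1 high library in each group.

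Fgf10 (ENSMUSG00000021732.14, chromosome 13, 118669791 to 118792115, plus strand) was at 8.29, 19.1 and 24.7 CPM in KO on chow and 7.66, 6.92 and 8.76 CPM in controls on chow, again with the M library of the KO mice inside the control range. The KO libraries on HFD had 14.5, 11.6 and 39.8 CPM, and HFD controls 10.1, 22.7, 9.46 and 14.1 CPM. All 4 HFD controls were above all 3 chow controls. Nes (ENSMUSG00000004891.16, chromosome 3, 87971078 to 87980451, plus strand) had the narrowest span, from 3.37 to 7.74 CPM on chow and from 2.89 to 11.8 CPM on HFD, and the groups overlapped on each diet.

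**Figure D1:**
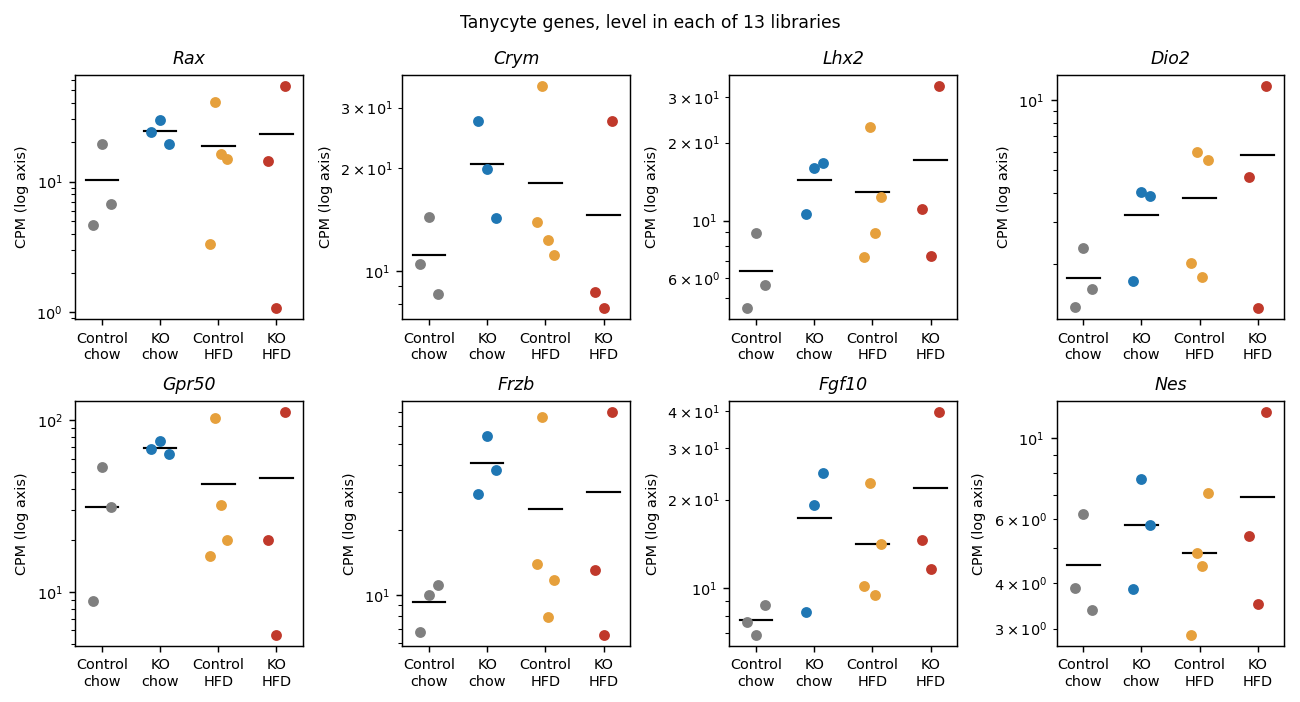
Level of each gene in each library, in CPM on a log axis, by group (3, 3, 4 and 3 libraries); each point is 1 library and the bar is the group mean. In KO on HFD the points reach from the lowest to the highest of the plot for Rax (1.07 to 54.3 CPM), while the KO libraries on chow lie between 19.4 and 29.4 CPM.

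The first comparison asked how KO differed from control on chow. Lhx2, Gpr50 and Frzb had KO libraries that all lay above the control libraries, 3 of 8 genes, where 10.7% of all 23622 tested genes did so. The fitted difference was largest for Frzb, a log2 fold change of 2.14 ± 1.04 (SE), with an edgeR adjusted p of 0.425 and a 95% interval of -0.22 to 4.50. It was 1.29 ± 1.24 for Rax, 1.16 ± 1.11 for Gpr50, 1.11 ± 0.61 for Lhx2, 1.01 ± 0.54 for Crym, 0.96 ± 0.53 for Fgf10, 0.72 ± 0.78 for Dio2 and 0.15 ± 0.46 for Nes. By edgeR's quasi-likelihood test 0 of 8 genes passed at an adjusted p under 0.05, as did 0% of all tested genes, with 0 of 8 and 12.9% at an unadjusted p under 0.05. DESeq2 also called 0 of 8 (1 of 8 at an unadjusted p under 0.05), and 333 of the 23622 tested genes. All 8 estimates were above 0, with a median of 1.06, against a median of 0.00 and 49.6% above 0 over all tested genes.

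Other contents of the tissue differed between the chow groups as well, some with overlap. All 3 chow controls were male by their reads, and KO on chow had 1 male and 2 female libraries. The summed level of 10 ependymal cilia genes was 87.2 to 207 CPM in KO on chow and 47.9 to 96.0 CPM in controls, and that of 7 neuronal genes was 2150 to 2800 CPM against 2770 to 3100 CPM. The 10 ependymal genes had a median log2 fold change of 1.41 with 10 of 10 above 0, and the 7 neuronal genes one of -0.28 with 6 of 7 below 0. The 12 other arcuate neuron genes summed to 1570 to 3310 CPM in KO on chow and at most 1040 CPM in controls, and the 6 AgRP neuron genes to 281 to 478 CPM against 165 to 266 CPM, without overlap in either list. Their median log2 fold changes were 0.94, with 12 of 12 above 0, and 1.27, with 6 of 6 above 0, and by edgeR 0 of these genes passed (7 and 2 at an unadjusted p under 0.05, all higher). Pomc, the melanocortin precursor gene, had a log2 fold change of 1.83 ± 0.60, Th, of dopamine synthesis, 1.48 ± 0.38 and the neuropeptide gene Cartpt 1.13 ± 0.27. The 8 pituitary genes summed to 2.08 to 38.7 CPM in KO and 1.45 to 6.08 CPM in controls. Their part in the result was not tested. In the M library of the KO mice Rax, Crym, Lhx2, Gpr50 and Frzb were above every chow control, and Dio2, Fgf10 and Nes were not. The summed tanycyte level of that library was 174 CPM, against 48.3 to 122 CPM in chow controls. Its ependymal and neuronal sums, 87.2 and 2800 CPM, lay inside the control ranges. Its AgRP neuron and other arcuate neuron sums, 281 and 1570 CPM, lay above them. Without Control_Chow replicate 3 the median was 0.96 with 7 of 8 above 0, and without it and Control_HFD replicate 3 it was 0.85.

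On HFD the comparison of KO with control gave 7 of 8 estimates above 0, with a median log2 fold change of 0.36. The values ran from -0.11 ± 0.52 for Crym to 0.52 ± 0.67 for Dio2. The edgeR adjusted p was 1 for each, 0 of 8 genes passed, as did 0% of all tested genes, and at an unadjusted p under 0.05 it was 0 of 8 against 1.66%. No gene of the 8 had KO libraries wholly above the controls, where 1.6% of tested genes did. DESeq2 called 0 of 8 as well (0 at an unadjusted p under 0.05). The median moved with single libraries, to 0.69 without KO_HFD replicate 1, 0.76 without KO_HFD replicate 2 and 0.20 without Control_HFD replicate 1. Without KO_HFD replicate 3 the median was -0.74 with 0 of 8 above 0, without Control_HFD replicate 2 it was 0.89 with 8 of 8 above 0, and without Control_HFD replicate 3 it was 0.16. With Control_HFD replicate 3 and Control_Chow replicate 3 both left out the median was 0.10, with 5 of 8 above 0.

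The diet was compared within each genotype. In controls the estimates for HFD against chow had a median of 0.85 on the log2 scale, with Frzb at 1.37 ± 0.96, Dio2 at 1.07 ± 0.70 and Nes at -0.03 ± 0.41. Only Fgf10 of the 8 had groups that did not overlap, where 4.88% of tested genes were higher without overlap. In KO the same contrast gave 4 of 8 above 0, from -0.61 ± 1.08 for Gpr50 to 0.87 ± 0.72 for Dio2, and 0 of 8 were higher without overlap, against 3.6% of tested genes. By edgeR 0 of 8 genes passed in either genotype, as did 0% of tested genes, with 0 of 8 at an unadjusted p under 0.05 in each, against 8.06% and 4.05% of tested genes, and DESeq2 called 0 of 8. Without Control_HFD replicate 2 the median in controls was 0.20, and without KO_HFD replicate 3 that in KO was -1.02. The median in controls was 0.98 without Control_HFD replicate 3, 0.74 without Control_Chow replicate 3 and 0.84 without both. The numbers in the sample titles fall in different series for the diets, so diet and any batch that follows them cannot be told apart. In the test of the interaction of genotype and diet 0 of 8 genes and 0% of tested genes passed by edgeR (0 of 8 and 5.1% at an unadjusted p under 0.05), and the estimate for Frzb was -1.82 ± 1.36 with an edgeR adjusted p of 0.918. DESeq2 called 0 of 8 here too.

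**Figure D2:**
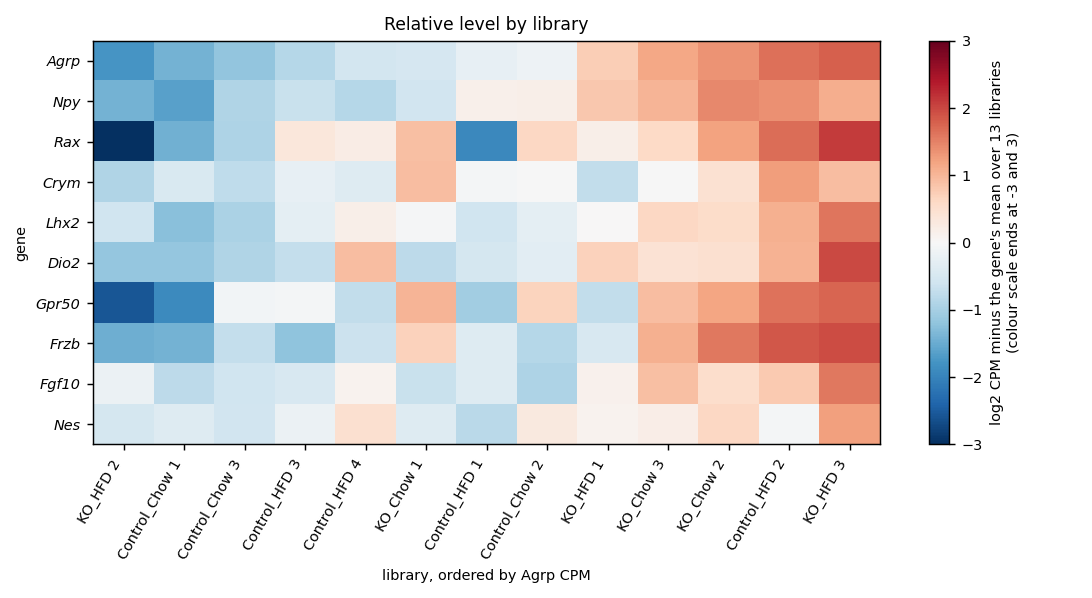
Relative level of Agrp, Npy and the 8 tanycyte genes (rows) in the 13 libraries (columns, ordered from the lowest to the highest Agrp), as log2 CPM minus the mean of the gene. KO_HFD replicate 3 and Control_HFD replicate 2, at 69.6 and 63.1 CPM of Agrp, are red for most genes, and KO_HFD replicate 2, at 5.88 CPM of Agrp, is blue for most.

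What the libraries shared across groups was a common rise and fall of the tanycyte genes with Agrp, the feeding-stimulating peptide of AgRP neurons. Agrp was at 7.52 to 18.0 CPM in chow controls, 14.2 to 50.7 CPM in KO on chow, up to 63.1 CPM in HFD controls and 5.88 to 69.6 CPM in KO on HFD. KO_HFD replicate 3, highest in Agrp, was among the top 3 libraries for 8 of 8 tanycyte genes, and Control_HFD replicate 2, the next, for 7 of 8. KO_HFD replicate 2, lowest in Agrp, and Control_Chow replicate 1, the next lowest, were each among the bottom 3 libraries for 6 of 8.

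Within groups, 4 of the 8 tanycyte genes rose with Agrp at an edgeR adjusted p under 0.05 over all genes, against 1.16% of 23621 tested genes, or 0.826% that rose. The 8 genes were chosen with earlier results of these data known, and they rose and fell with each other. The share of 4 of 8 is therefore a description. The slope is the log2 change per doubling of (Agrp CPM + 1), fitted with group and sex letter in the model. It was 0.56 ± 0.08 (SE) for Lhx2, with an edgeR adjusted p of 0.0231 and a 95% interval of 0.37 to 0.75. Fgf10 rose by 0.50 ± 0.07 (adjusted p = 0.0225), Dio2 by 0.74 ± 0.13 (adjusted p = 0.0332) and Frzb by 0.90 ± 0.16 (adjusted p = 0.0449) in the same edgeR fit. Rax and Gpr50 had slopes as steep, 1.01 ± 0.33 and 0.93 ± 0.25, with larger errors and adjusted p of 0.189 and 0.124. Crym and Nes had slopes of 0.37 ± 0.14 and 0.37 ± 0.11, with adjusted p of 0.219 and 0.125. All 8 had an unadjusted p under 0.05, against 16.7% of tested genes (8.32% higher and 8.37% lower), and the median slope was 0.65, against 0.00 over all tested genes.

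The calls rest on few libraries, while the sign held with any 1 library left out. All 8 slopes were above 0 with each of the 13 libraries left out in turn. Each such fit still held other Agrp-rich libraries. Among the 8 libraries at 18.0 CPM of Agrp or less, the correlation with Agrp was -0.14 for Fgf10 and 0.38 to 0.69 for the others. The number of genes called fell from 4 to 0 without KO_HFD replicate 3 or without Control_HFD replicate 2, the libraries with the most Agrp, and to 2 without KO_HFD replicate 2, Control_HFD replicate 1, Control_HFD replicate 3, KO_Chow replicate 2, KO_Chow replicate 3 or Control_Chow replicate 2. With Control_HFD replicate 3 and Control_Chow replicate 3 both left out it was 1, Fgf10 (0.48, adjusted p = 0.0402). The annotated Agrp model spans 70.7 kb and overlaps Ripor1 and Ctcf on the opposite strand, so its count can hold their reads. With Npy, the other main peptide of AgRP neurons, in its place, the slopes ran from 0.32 for Nes to 0.95 for Gpr50, and edgeR called 0 of 8 genes and 26 of all genes.

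**Figure D3:**
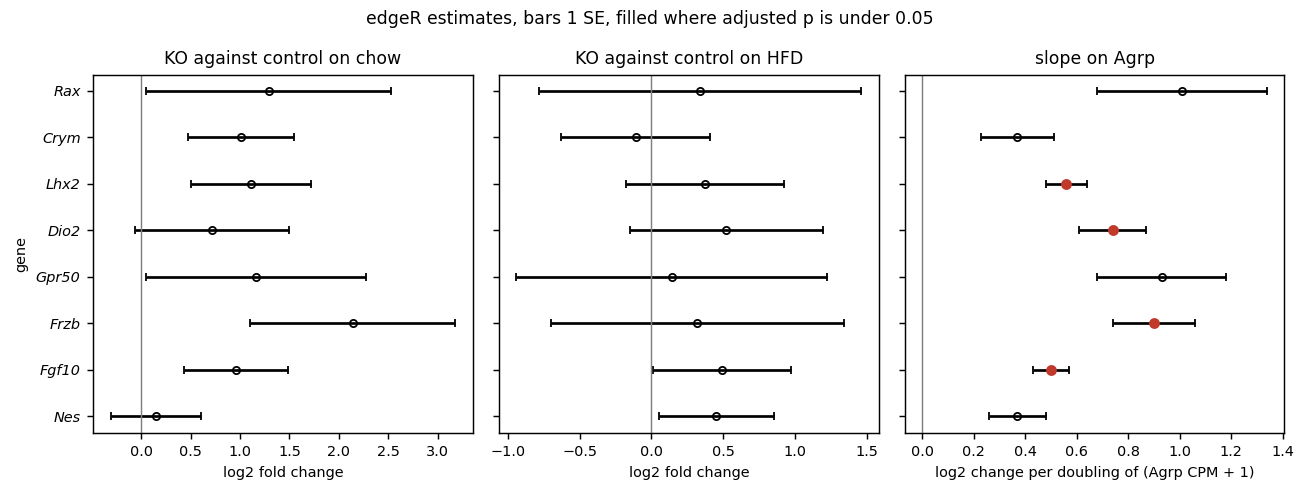
edgeR estimates for the 8 genes with bars of 1 SE, for KO against control on chow (left), on HFD (middle) and for the slope on Agrp within groups (right); the x axes are log2 fold change or log2 change per doubling of (Agrp CPM + 1), and filled points have an adjusted p under 0.05. Lhx2, Dio2, Frzb and Fgf10 are filled for the slope, and no gene is filled for the genotype comparisons.

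The same relation was read as a correlation of log2(CPM + 1) over the 13 libraries, 8 relations in all, each with a permutation test (two-sided). For Lhx2 Pearson's r was 0.90 (permutation p = 5e-05) and Spearman's rho 0.86 (permutation p = 0.00047). For Frzb r was 0.89 (permutation p = 0.00014) and rho 0.90 (permutation p = 7e-05), for Dio2 0.85 (permutation p = 0.00037) and 0.86 (permutation p = 0.00037), and for Fgf10 0.83 (permutation p = 0.00045) and 0.69 (permutation p = 0.011). Rax had r = 0.80 (permutation p = 0.00102) and rho = 0.80 (permutation p = 0.00201), and Gpr50 0.78 (permutation p = 0.00229) and 0.81 (permutation p = 0.00123). Crym and Nes had the weakest relations, at r = 0.68 (permutation p = 0.0124) and 0.68 (permutation p = 0.0094), with rho of 0.75 (permutation p = 0.00491) and 0.65 (permutation p = 0.0183). Adjustment over all genes is given by the edgeR slopes above.

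Over all tested genes r with Agrp had a median of 0.12, with 59.4% above 0. The 8 genes lay between percentile 93.1 (Crym) and percentile 99.9 (Lhx2) of r over all tested genes. Without KO_HFD replicate 3 and Control_HFD replicate 2, the 2 libraries farthest from the median of Agrp, r stayed between 0.65 and 0.83 for 7 genes and was 0.43 for Crym (permutation p = 0.187). On values centred by group r was 0.65 to 0.88, and the exact permutation test within groups, of 5184 arrangements, gave p from 0.000965 for Frzb to 0.102 for Crym. Within the 7 HFD libraries r ran from 0.59 for Nes to 0.93 for Frzb, and within the 6 chow libraries from 0.47 for Crym to 0.99 for Dio2. Agrp left a gap between 18.0 and 33.6 CPM. Among the 8 libraries below it r was 0.38 to 0.69 for 7 genes, with Crym at 0.67, and -0.14 for Fgf10. In the libraries above the gap, in order of rising Agrp, Fgf10 was at 14.5, 24.7, 19.1, 22.7 and 39.8 CPM. No r was computed for those libraries alone.

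**Figure D4:**
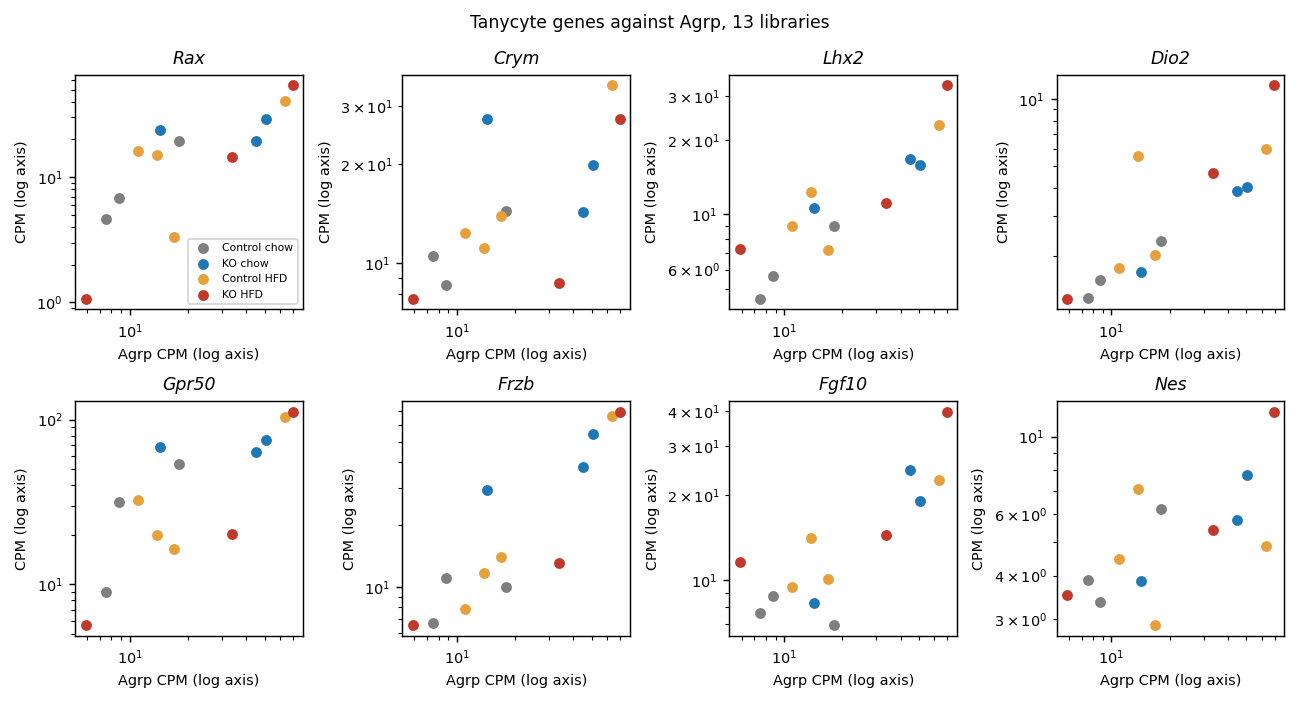
Each tanycyte gene (CPM, log axis) against Agrp (CPM, log axis) in the 13 libraries, coloured by group. The 4 libraries with the most Agrp, from 44.8 to 69.6 CPM, lie at the upper right for Lhx2 and Frzb, and for Fgf10 the 8 libraries at 18.0 CPM or less show no trend (r = -0.14).

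The 8 genes also rose and fell with each other. All 28 pairs had a positive r, from 0.40 for Crym with Nes to 0.92 for Rax with Gpr50, with a median of 0.77. Lhx2 had the highest mean r with the other 7 genes, 0.82, and Crym the lowest, 0.65. Lhx2 was at r of 0.90 with both Dio2 and Fgf10, 0.81 with Rax and 0.77 with Gpr50. Crym with Fgf10, at 0.48, and Gpr50 with Fgf10, at 0.54, were among the weaker pairs. Libraries share depth and tissue content, so the pairs are a description.

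Outside the 8, the genes most alike them over the 13 libraries, by mean r with the 8, included Col23a1 (0.86), Mia (0.86), Pla2g5 (0.85), Ager (0.85), Lman1 (0.84), Mamdc2 (0.84), Tshr (0.84), Cdc14a (0.83) and Palld (0.83). The median over tested genes was 0.11. Tshr encodes the receptor of thyrotropin. Tshr was at 2.33, 8.76 and 4.23 CPM in controls on chow, 7.66, 10.5 and 11.6 CPM in KO on chow, 4.17, 10.6, 5.94 and 8.28 CPM in controls on HFD and 6.61, 2.81 and 24.1 CPM in KO on HFD. Col23a1, a collagen gene of tanycytes, ran from 23.6 to 268 CPM over the libraries. Both were highest in KO_HFD replicate 3.

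Among 19 other tanycyte genes the slopes on Agrp had a median of 0.22, and those that rose at an edgeR adjusted p under 0.05 included Col23a1 by 0.88 ± 0.11 (adjusted p = 0.0206) and the receptor gene Notch1 by 0.24 ± 0.04 (adjusted p = 0.0301). The broader glial genes Sox2 and Hes5 had slopes of 0.03 ± 0.05 and -0.04 ± 0.07. For KO against control on chow 0 of the 19 passed by edgeR (3 higher and 1 lower at an unadjusted p under 0.05, as were 6.84% and 6.07% of tested genes). The glutamate transporter gene Slc17a8 had a log2 fold change of 1.95 ± 0.71. Its levels were low, at 0.046 to 0.346 CPM in controls and 0.446 to 1.17 CPM in KO on chow. The lowest control was below 3 counts. Cd59a, a complement inhibitor, had 0.95 ± 0.36, the lipid-binding protein gene Fabp7 0.66 ± 0.24 and the guidance ligand gene Slit2 -0.43 ± 0.13.

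The pathways of the members were read in the same fits. The 15 genes that handle thyroid hormone had a median slope on Agrp of 0.01. Of these, 1 rose by edgeR (adjusted p = 0.0278), where 0.826% of tested genes rose. At an unadjusted p under 0.05, 3 were higher and 5 lower, against 8.32% and 8.37% of tested genes. Slco1c1, a thyroid hormone transporter gene, had a slope of -0.09 ± 0.05, Dio3, which inactivates the hormone, 0.24 ± 0.25, and the receptor genes Thra and Thrb -0.07 ± 0.03 and -0.16 ± 0.05. On chow the corepressor gene Ncor1 differed between KO and control by -0.17 ± 0.06, the coactivator gene Ncoa1 by -0.29 ± 0.16 and Thrsp by 0.80 ± 0.43, and 0 of the 15 passed by edgeR (0 higher and 1 lower at an unadjusted p under 0.05).

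Of 15 tested WNT antagonists, receptors and targets, the family around Frzb, 0 passed for the slope (2 at an unadjusted p under 0.05, both higher) and the median slope was 0.07. Over all tested genes an unadjusted p under 0.05 came with 8.32% higher and 8.37% lower slopes, and with 6.84% higher and 6.07% lower values on chow. The WNT receptor gene Fzd5 had a slope of 0.51 ± 0.11 with an edgeR adjusted p of 0.0593. On chow Fzd1 differed by -0.44 ± 0.14, Lrp6 by -0.23 ± 0.12, Lrp5 by -0.48 ± 0.36 and the secreted antagonist gene Sfrp5 by 0.21 ± 0.15, and 0 passed by edgeR (0 higher and 1 lower at an unadjusted p under 0.05). Of 14 genes of FGF ligands, receptors and targets 0 passed for the slope (2 higher and 2 lower at an unadjusted p under 0.05), with a median of 0.02. The FGF target gene Etv4 differed by -0.55 ± 0.20 on chow, the receptor genes Fgfr3 and Fgfr1 by -0.34 ± 0.14 and -0.24 ± 0.13, and Fgf9 by -0.36 ± 0.25, with 0 past the threshold by edgeR (0 higher and 2 lower at an unadjusted p under 0.05).

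Markers of neighbouring cells moved with Agrp to different degrees. Over all tested genes 0.826% rose and 0.33% fell with Agrp by edgeR. Of 10 ependymal cilia genes 5 rose, with a median slope of 0.63, and Tmem212 had 1.99 ± 0.19. The summed ependymal level was highest in KO_Chow replicate 2, at 207 CPM, and was 94.7 CPM in KO_HFD replicate 3, where the summed tanycyte level was highest at 360 CPM. Of 5 AgRP neuron genes tested beside Agrp, Npy, Corin and Acvr1c rose, and of 12 other arcuate neuron genes Ghrh and Tbx3 did. Of 7 general neuronal genes Rbfox3, Syt1 and Slc17a6 fell, by 0.24, 0.19 and 0.35 on the log2 scale per doubling of Agrp, and their list had a median slope of -0.18. Of 8 astrocyte genes, 8 endothelial and mural genes, 6 choroid plexus genes and 7 tested pituitary genes 0 passed by edgeR (0, 0, 2 and 0 at an unadjusted p under 0.05), with median slopes of -0.02, 0.01, 0.14 and 1.09. The summed pituitary level ran from 1.02 to 326 CPM and was highest in KO_HFD replicate 3. The part of tissue content in the slopes was not tested.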

How the data were processed

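RNA of arcuate nucleus tissue of 13 samples was extracted with Trizol and sequenced from Takara SMART-Seq low-input libraries, per the labels' protocols. In 1 table the authors deposited raw gene counts for each library with RPKM beside them. Per the submitters' processing notes, STAR, STAR-Fusion, Subread, FastQC, edgeR and mm10 were used, with no role stated. Annotation release, strand setting and filters were not stated there. Deposited RPKM values equal counts scaled by column total and length, and only counts were tested, and RPKM served to compare levels between genes. Coordinates are from GENCODE M21 (GRCm38, the assembly of mm10), which holds 54673 of the 55421 identifiers. The promoter table of RefSeq (GRCm38.p6) held 6 of the 8 genes.

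Groups came from the sample titles, which also hold a sex letter and a number with a suffix. Nothing in the labels says that each number is a separate mouse. All 23622 genes that passed edgeR's default filter entered 1 fit of 4 groups with the sex letter as a term (edgeR 4.0.16, limma 3.58.1, R 4.3.3, TMM factors, robust quasi-likelihood F test, 8 residual degrees of freedom), with Benjamini-Hochberg adjustment over all of them and a threshold of 0.05. The slope on Agrp added log2(CPM + 1) of Agrp to that fit and left Agrp out of the tested genes. Intervals are 95% t intervals. Correlations used log2(CPM + 1) with 100000 permutations, or all arrangements within groups, and were not adjusted over all genes, a step planned at first. The fits were tested on simulated data. Alternatives were DESeq2 1.42.0, RLE factors, no filter, no sex term, fewer samples, Npy in place of Agrp and a pseudocount of 0.1. The counts of every pair of libraries differed beyond sampling noise (lowest chi-square over its degrees of freedom 15.0), and none was treated as a repeat. The members and gene lists were chosen with earlier results of these data known. Named genes are the 8 members, Agrp and Npy, up to 4 genes per list with the smallest p on chow, and the 10 genes most alike the members with a mean log2 CPM of at least 1. List genes named beside slopes were chosen after their values were seen. A gene that these rules also name is not reported here. Of each library's counts 0 had no gene name.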

Additional observations from a re-analysis of the deposited data

Results flagged for a closer look

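In the 4 controls on HFD, 1 library stood apart from the other 3 for a pair of genes, by Dixon's test at the 95% level. Crym was at 34.8 CPM in Control_HFD replicate 2 and at 11.1 to 13.9 CPM in the others, and Frzb at 66.2 CPM in the same library against 7.90 to 13.9 CPM. The other 6 genes were tested too and had no such gap. The 95% level assumes normal values and independent tests. CPM were tested without a log, and Crym and Frzb rose and fell together over the libraries (r = 0.85). The level therefore gives no rate of such gaps by chance here. This library also had the highest Agrp of its group, at 63.1 CPM.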

How the results depend on the processing

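The count of tanycyte genes called was 0 for every genotype and diet comparison under each alternative. All 152 slopes of the 8 genes on Agrp under the alternatives were above 0. The number of genes called for the slope, 273, became 161 without the sex term, 26 with Npy, 1689 without the group term and 154 without Control_HFD replicate 3 and Control_Chow replicate 3 (the doubted libraries), and the number of tanycyte genes called, 4, became 2, 0, 5 and 1. With 1 library left out the slope calls ran from 0 to 4 tanycyte genes and from 0 to 792 genes. The correlation of Nes with Agrp ran from 0.58 to 0.77 with 1 library left out, and missed the threshold without KO_HFD replicate 3 (permutation p = 0.054). All-gene calls moved from 0 to 333 by DESeq2 and to 1 without the filter, with only the 2 groups compared or without both doubted libraries (KO against control on chow), to 1 without both (on HFD), to 46 by DESeq2 and 5 without the filter (diet, controls), to 9 by DESeq2 (diet, KO) and to 6 by DESeq2 (interaction). With 1 library left out they ran from 0 to 1 for KO against control on chow and on HFD and from 0 to 2 for diet in controls. The cause was not tested.

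Log2 fold changes that turned sign did so as follows. With 1 library left out they ran, for KO against control on HFD, Rax -1.59 to 1.04, Crym -1.01 to 0.42, Lhx2 -0.47 to 0.80, Dio2 -0.38 to 0.96, Gpr50 -1.76 to 0.91, Frzb -1.21 to 1.24, Fgf10 -0.09 to 0.88, Nes -0.07 to 0.77. On chow Nes ran -0.26 to 0.50. For diet in controls they ran Rax -0.20 to 1.70, Gpr50 -0.68 to 1.13, Nes -0.40 to 0.33, and in KO Rax -2.16 to 0.48, Crym -1.35 to 0.05, Lhx2 -0.69 to 0.59, Dio2 -0.14 to 1.37, Frzb -2.26 to 0.01, Fgf10 -0.32 to 0.68, Nes -0.27 to 0.61. For the interaction they ran Rax -3.21 to 0.04, Dio2 -1.30 to 0.33, Fgf10 -1.16 to 0.05, Nes -0.32 to 0.67. Without both doubted libraries Nes on chow was -0.34, and Gpr50 and Frzb on HFD were -0.03 and -0.21. Nes for diet in controls was 0.10 without the sex term and 0.04 with only the 2 groups compared. Without both doubted libraries all 7 other chow estimates kept their sign.

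No paired analysis was possible because the groups compared share at most 1 number in the titles, too few for a block. At these depths 1 count was worth at most 0.0288 CPM, little beside the spread between libraries of a group.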
